A study of Mus musculus with 8 samples.

Results

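Dbp, Tef, Hlf and Nfil3 encode the transcription factors that compete for 1 DNA element of the circadian clock, the D-box. They were chosen by name, with earlier results of these data known, as 4 of the 55487 genes in the expression table. All 4 had enough counts to enter the comparison, which covered 14353 genes. DBP, TEF and HLF are the PAR bZIP factors: proteins with a basic region that contacts DNA, a leucine zipper that joins them in pairs, and a stretch rich in proline and acidic residues. They activate transcription from D-boxes, and NFIL3, a bZIP protein without that stretch, binds the same element and represses it. In liver, Dbp is known for one of the strongest daily swings of any transcript, because BMAL1 and CLOCK drive it from E-boxes, whereas Nfil3 is held down by the REV-ERB repressors and activated by ROR factors through a shared response element.

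RNA was sequenced from the GFP-negative cells, termed the stromal vascular fraction, that cell sorting left after GFP-labelled tumor cells were removed from subcutaneous tumors. The tumors had been grown from MC38, a mouse colon carcinoma line, in 4 Bmal1+/+ mice and 4 Bmal1-/- mice, with 1 library per sample. Both kinds of mice were bred from Bmal1+/- parents and carried the same MC38 cells, whose own Bmal1 was not deleted, so the deletion concerned the whole host and no single cell type. The age and sex of the mice and the time of day at which tissue was taken are not given in the sources used here, although Dbp, Tef and Nfil3 are genes whose levels are known to vary with the time of day.

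Total counts lay between 14054825 and 18449143 per library, so that 3 counts, taken as the floor of detection, correspond to between 0.167 and 0.213 CPM (counts scaled to a common library size by TMM normalization), a limit that covers counting error only. Bmal1 (Arntl), the targeted gene, was higher in the libraries labelled Bmal1-/-, at 30.1 to 35.0 CPM against 0.960 to 2.71 CPM in Bmal1+/+ libraries, a direction that goes against the labels, and the libraries are therefore named by label throughout. These counts cover the whole gene and do not show which exons the reads came from. The summed level of 8 hepatocyte markers, albumin among them, was 91064.5 to 100348.2 CPM in Bmal1+/+ libraries and 45137.3 to 59666.2 CPM in the libraries labelled Bmal1-/-. In every library this was far above the macrophage, endothelial and fibroblast marker sums together, which goes against the label of sorted tumor stroma, and the levels of liver genes below are those of libraries with this much hepatocyte RNA. Without Alb the other 7 summed to 26196.4 to 28476.2 CPM and 28882.2 to 46921.8 CPM, higher in every library labelled Bmal1-/-. Macrophage markers summed to 327.4 to 393.4 CPM and 142 to 253.4 CPM, endothelial markers to 209.4 to 241.4 CPM and 134.1 to 195.7 CPM, and fibroblast markers to 131.8 to 211.8 CPM and 99.8 to 104.8 CPM. Of the markers tested, 1 of 8 for hepatocytes fell and 2 rose. Of the others, 5 of 7 for macrophages, 4 of 6 for endothelial cells and 4 of 6 for fibroblasts fell. Across all genes tested, 16.2% were lower and 14.9% higher. The part of these markers in the results that follow was not tested. T and NK cell markers stayed under 6 CPM in every library, the fibroblast marker Pdpn and the colorectal marker Cdx2 had no count at all, and Krt20 had at most 3 counts in any library. Xist ranged from 843.8 to 1094.9 CPM under the label Bmal1+/+ and from 0.142 to 0.749 CPM under Bmal1-/-, while 4 Y-linked genes summed to 0 CPM and to 121.1 to 144.5 CPM, so sex and genotype label cannot be told apart in any comparison. Replicate 4 labelled Bmal1-/- stood apart from the rest of its group: per degree of freedom, chi-square between its counts and theirs was at least 142.2, against at most 44 between the other Bmal1-/- libraries. In these bulk samples fewer cells of a type and less RNA per cell cannot be told apart.

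The basic regions of the 4 factors are shown first, because the shared element rests on them. Each line gives 60 coding bases (20 codons) of the basic region, 5′ to 3′ on the gene's own strand, from GENCODE transcripts of mouse genome build GRCm38, and capitals mark the bases that differ from Dbp.
Dbp: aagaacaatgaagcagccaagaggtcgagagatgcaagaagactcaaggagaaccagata
Tef: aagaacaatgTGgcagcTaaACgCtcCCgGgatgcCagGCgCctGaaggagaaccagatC
Hlf: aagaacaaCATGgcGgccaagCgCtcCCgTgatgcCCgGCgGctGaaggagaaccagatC
Nfil3: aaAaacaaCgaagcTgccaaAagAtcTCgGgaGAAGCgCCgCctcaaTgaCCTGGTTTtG
They lie at chr7:45709692-45709751 (+ strand, exon 4 of 4) for Dbp, chr15:81823493-81823552 (+ strand, exon 4 of 4) for Tef, chr11:90340888-90340947 (- strand, exon 4 of 4) for Hlf and chr13:52968564-52968623 (- strand, exon 2 of 2) for Nfil3. Tef shared 45 of the 60 bases with Dbp and Hlf shared 43, yet both encode the same amino acid as Dbp at 19 of 20 codons. Nfil3 shared 34 bases and 13 amino acids, with most of its differences in the second part of the stretch. The whole proteins have 325 (DBP), 301 (TEF), 295 (HLF) and 462 (NFIL3) residues. Their transcripts are easy to tell apart when reads are counted, since the longest run of bases that any 2 of the 4 transcripts share exactly was 18, between Tef and Hlf.

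The comparison asked how these 4 genes differed between libraries labelled Bmal1-/- and Bmal1+/+. Dbp was 20.0-fold lower, Tef was 1.97-fold lower and Nfil3 was 2.38-fold higher in the libraries labelled Bmal1-/-, whereas Hlf did not pass the test. Across all genes tested, 16.2% were lower and 14.9% were higher at an adjusted p below 0.05 (quasi-likelihood test of edgeR, adjusted by the Benjamini-Hochberg method), and in 33.4% the CPM values of the groups did not overlap. A change of either kind was thus common in these libraries, and it is the size of the Dbp difference that was rare: Dbp stood at rank 71 of the 14353 genes ordered from the lowest log2 fold change.

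Dbp (ENSMUSG00000059824, chr7:45705088-45710203, + strand) encodes the PAR bZIP factor with the widest daily swing. Its normalized level was 67.0, 91.3, 112.9 and 108 CPM in Bmal1+/+ replicates 1 to 4, from 1113 to 1940 counts. In the libraries labelled Bmal1-/- it was 3.75, 4.50, 6.97 and 3.73 CPM, from 55 to 98 counts. Every Bmal1+/+ library lay far above every library labelled Bmal1-/-, and the groups did not overlap. The means were 94.8 ± 20.7 CPM and 4.74 ± 1.53 CPM (SD, n = 4 each), a log2 fold change of -4.32 (standard error 0.25, 95% interval -4.88 to -3.76, adjusted p = 4.1e-06, quasi-likelihood test of edgeR). The fold itself had a 95% interval of 13.6 to 29.5. The residual Dbp counts remained well above the floor of 3 counts in all 4 libraries.

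The 3′ part of Dbp overlaps Sphk2, which encodes a sphingosine kinase on the opposite strand (chr7:45709467-45718002), over 539 of Dbp's 2993 exon bases. Whether the counting used strand is not given in the sources used here, so reads in those bases cannot be assigned to either gene with certainty. The residual Dbp level of 3.73 to 6.97 CPM in the libraries labelled Bmal1-/- could therefore hold reads of Sphk2. The size of the Dbp fold depends on this, which was not tested. Sphk2 was at 60.4, 60.6, 45.8 and 29.8 CPM in Bmal1+/+ libraries and at 65.9, 67.7, 79.6 and 68.5 CPM in the libraries labelled Bmal1-/-. It did not pass the test (log2 fold change 0.52, standard error 0.20, adjusted p = 0.079), and its values were on the side opposite to those of Dbp. Tef overlaps an antisense transcript, Gm17597, over 193 exon bases, and this transcript had between 0 and 4 counts in each of the 8 libraries.

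Tef (ENSMUSG00000022389, chr15:81802421-81826863, + strand) encodes thyrotroph embryonic factor. It was at 219.5, 262.4, 272.8 and 238 CPM in Bmal1+/+ replicates 1 to 4. In the libraries labelled Bmal1-/- it was at 156.1, 132, 109 and 107.9 CPM. The highest of these 4 values was below the lowest Bmal1+/+ value, although the distance was small beside that of Dbp. The means were 248.2 ± 24.0 CPM and 126.3 ± 22.8 CPM (SD, n = 4 each). This is a log2 fold change of -0.98 (standard error 0.14, 95% interval -1.30 to -0.65, adjusted p = 0.00097, edgeR's quasi-likelihood test), or a fold of 1.57 to 2.46. Its size falls just short of the absolute log2 fold change of 1 that the study required.

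Hlf (ENSMUSG00000003949, chr11:90336536-90390895, - strand) encodes hepatic leukemia factor, named for its fusion to E2A in a form of human leukemia. Its level was 59.2, 59.2, 53.5 and 101.6 CPM in Bmal1+/+ replicates 1 to 4 and 72.1, 70.6, 46.5 and 57.7 CPM in those labelled Bmal1-/-. The groups overlapped, and Bmal1+/+ replicate 4 was alone above all others. With means of 68.4 ± 22.3 CPM and 61.7 ± 12.0 CPM (SD, n = 4 each), the log2 fold change came to -0.15 (adjusted p = 0.64, standard error 0.22, edgeR's quasi-likelihood test). Its 95% interval, -0.64 to 0.34, runs from 1.56-fold lower to 1.27-fold higher. The estimate for Tef, -0.98, lies outside it, but the interval of Tef reaches -0.65. A direct comparison of Tef with Hlf, given below, did not pass (exact permutation test, p = 0.0571). Without Bmal1+/+ replicate 4 the estimate for Hlf changed sign, to 0.10 (adjusted p = 0.69, edgeR's quasi-likelihood test).

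Nfil3 (ENSMUSG00000056749, chr13:52967209-52981073, - strand) encodes the repressor of D-boxes, also called E4BP4, which is known besides for its role in the development of NK and innate lymphoid cells. It was at 24.4, 24.9, 18.7 and 22.1 CPM in Bmal1+/+ libraries, from 279 to 406 counts. In the libraries labelled Bmal1-/- it was at 63.0, 50.4, 47.5 and 54.1 CPM, from 667 to 1008 counts. All 4 of these lay above all 4 Bmal1+/+ values. The means were 22.6 ± 2.82 CPM and 53.7 ± 6.72 CPM (SD, n = 4 each), with a log2 fold change of 1.25 (standard error 0.13, 95% interval 0.96 to 1.54, adjusted p = 0.00012, edgeR's quasi-likelihood test), which is a fold of 1.95 to 2.91. T and NK cell markers, of the lineage in which Nfil3 is best known, were at 3.96 to 5.95 CPM and 1.92 to 5.50 CPM in sum. Of the 4 markers that were tested 0 passed, where 16.2% of all genes tested were lower and 14.9% higher. With so few markers this says little, and the part of these cells in the Nfil3 difference was not tested.

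Leaving out replicate 4 labelled Bmal1-/-, the library that stood apart, gave log2 fold changes of -4.22 for Dbp, -0.90 for Tef, -0.11 for Hlf and 1.25 for Nfil3, each on the same side of the threshold as with all libraries.

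**Figure D1:**
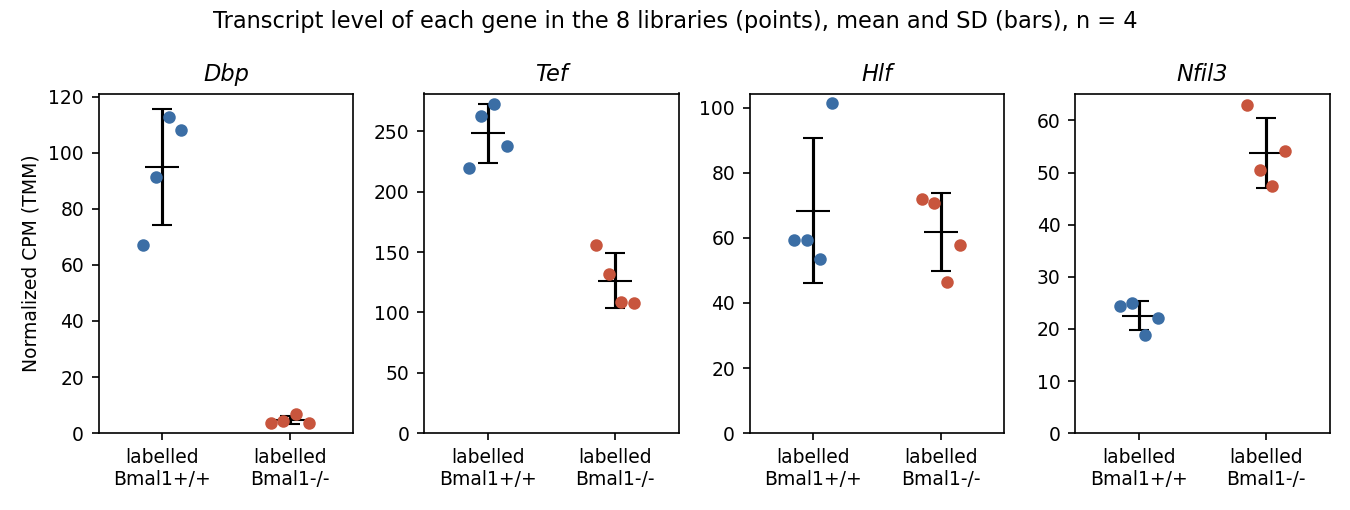
Normalized level in CPM (y axis, from 0) of Dbp, Tef, Hlf and Nfil3 in each library labelled Bmal1+/+ (blue points) and Bmal1-/- (red points), with the mean and SD of 4 libraries as black bars. Dbp falls from 94.8 to 4.74 CPM and Tef from 248.2 to 126.3 CPM with no overlap, Hlf overlaps between groups with 1 Bmal1+/+ library at 101.6 CPM, and Nfil3 lies at 22.6 against 53.7 CPM with no overlap.

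CPM values do not allow for the length of a transcript, so levels were compared between the 4 genes only on the authors' FPKM scale (counts divided by exon length and by library total). In Bmal1+/+ libraries the order by mean was Tef (16.6 to 20.6 FPKM), Dbp (11.4 to 19.2), Nfil3 (9.32 to 12.2) and Hlf (4.65 to 8.53). Dbp overlapped with both of its neighbours in this order, and Hlf lay below all values of the other 3 genes. In the libraries labelled Bmal1-/- the order was Nfil3 (23.4 to 31.8 FPKM), Tef (7.92 to 12.0), Hlf (4.01 to 6.37) and Dbp (0.617 to 1.18), with no overlap between any neighbours. Dbp thus moved from the second place to the last and Nfil3 from the third place to the first.

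The summed FPKM of Dbp, Tef and Hlf, a simple measure of transcripts for D-box activators, was 33.1, 39.0, 44.5 and 43.7 in Bmal1+/+ libraries and 19.0, 17.2, 13.4 and 13.4 in those labelled Bmal1-/-. Dbp made up 39.2% ± 3.74 of this sum in Bmal1+/+ libraries and 5.34% ± 2.38 in the libraries labelled Bmal1-/- (SD, n = 4 each). The share of Tef was 46.3% ± 4.6 and 60.6% ± 1.93, and that of Hlf 14.6% ± 3.91 and 34.1% ± 3.02. Tef was therefore the main PAR bZIP transcript in the libraries labelled Bmal1-/-, while in Bmal1+/+ libraries the shares of Tef (39.8% to 50.1%) and Dbp (34.4% to 43.2%) overlapped. The sum was 3.72 ± 0.904 times the FPKM of Nfil3 in Bmal1+/+ libraries (2.73 to 4.77) and 0.589 ± 0.0663 times in the libraries labelled Bmal1-/- (0.514 to 0.673). In transcripts per length, activators outnumbered the repressor in all 4 Bmal1+/+ libraries and the repressor outnumbered the activators in all 4 others. These sums and shares are given as a description, with no test.

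**Figure D2:**
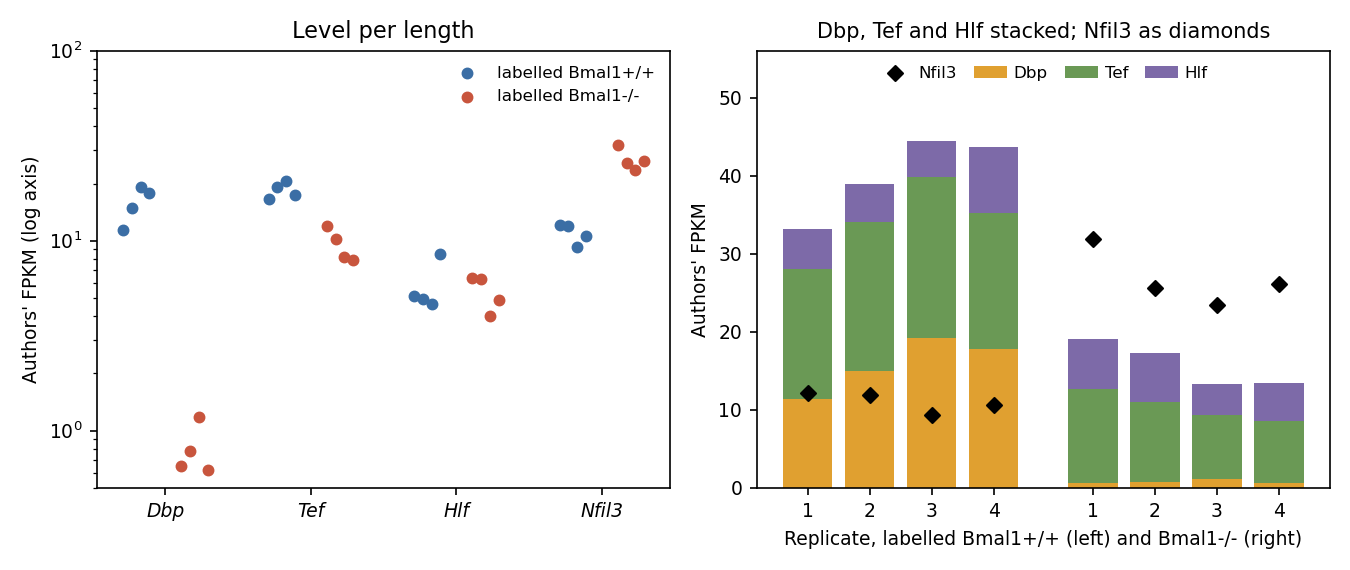
Left, FPKM (log axis) of each gene in each library labelled Bmal1+/+ (blue) and Bmal1-/- (red). Right, FPKM of Dbp, Tef and Hlf stacked for each replicate, with Nfil3 as black diamonds: the diamonds lie inside the Dbp part of the bars in all but the first Bmal1+/+ library, where Nfil3 at 12.2 FPKM is just above Dbp at 11.4, and above the whole bar in each library labelled Bmal1-/-.

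Whether the genes differed from one another in their change was tested on the ratio of 2 genes within a library, which needs no scaling between libraries. All 6 pairs were compared by an exact permutation test (two-sided, 4 against 4 libraries), in which no p can be below 0.0286. The log2 ratio of Dbp to Tef was -1.41 ± 0.26 in Bmal1+/+ libraries and -4.74 ± 0.58 in the libraries labelled Bmal1-/- (SD, n = 4 each), a difference of -3.33 (exact p = 0.0286, 0.0343 adjusted over the 6 pairs). Dbp also changed more than Hlf, by -4.19 on the log2 scale, with the same exact p. Against Nfil3, the difference in the log2 ratio was -5.56 for Dbp, -2.24 for Tef and -1.37 for Hlf, each with exact p = 0.0286 and 0.0343 after adjustment. For Tef and Hlf the ratio was 1.90 ± 0.49 and 1.04 ± 0.16 (SD, n = 4 each), a difference of -0.87 that did not pass (exact p = 0.0571, also after adjustment), although with a pseudocount of 0.5 CPM in place of 0.1 it was -0.86 with exact p = 0.0286. The log2 ratios of Tef to Hlf were 1.23 to 2.35 in Bmal1+/+ libraries and 0.90 to 1.23 in the others, and the Bmal1+/+ value at 1.23 was that of replicate 4, in which Hlf was highest. Dbp and Nfil3 were the most unlike pair: over the 8 libraries the root mean square difference between their centred log2 CPM was 2.82, and the least unlike pair was Tef and Hlf, at 0.54.

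**Figure D3:**
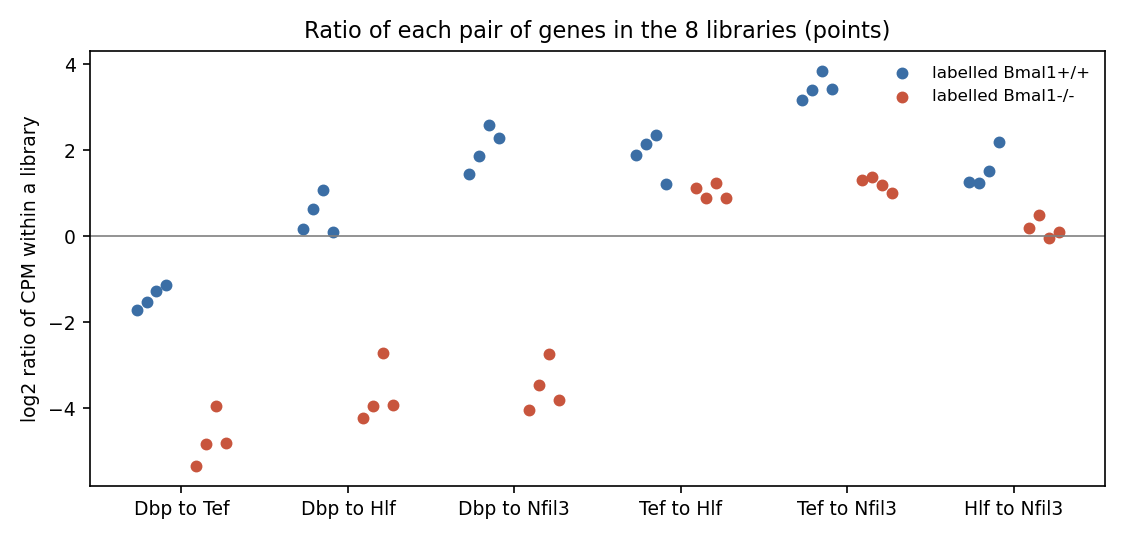
Log2 ratio of CPM (y axis) for each pair of the 4 genes in each library labelled Bmal1+/+ (blue) and Bmal1-/- (red). The groups are apart for 5 pairs, with the widest gap for Dbp to Nfil3 (a mean difference of -5.56), and they meet at 1.23 for Tef to Hlf.

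The genes whose profile over the 8 libraries was most like that of each factor were found among the 13441 genes that averaged 1 CPM or more, by the root mean square difference of centred log2(CPM + 0.1). For Dbp they were Rsph4a (0.379), Fmo2 (0.380) and Gm42375 (0.404). Of these, Fmo2, a flavin-containing monooxygenase, was well measured, at 109.9 ± 3.46 CPM in Bmal1+/+ libraries and 5.01 ± 0.673 CPM in those labelled Bmal1-/- (SD, n = 4 each), while Rsph4a had 0 to 2 counts and Gm42375 had none in any library labelled Bmal1-/-. For Tef the nearest were Rnf157 (0.078), Ppat (0.084), which starts purine synthesis, and Cmtm3 (0.092). For Hlf they were Dck (0.122), a deoxynucleoside kinase, Cdk2 (0.128) and 4930522L14Rik (0.128). For Nfil3 they were Leo1 (0.118), a subunit of the PAF1 elongation complex, Cnnm3 (0.119) and Gm44103 (0.128). Neighbours of Dbp lay farther from it than those of Tef, Hlf or Nfil3, and few genes have a difference as large as that of Dbp.

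Upstream of the 4 factors, the E-box arm of the clock comprises BMAL1, CLOCK and their partners and the repressors they drive. Of its 12 genes 5 fell (41.7%, against 16.2% of all genes tested), 4 rose (33.3%, against 14.9%) and 3 did not pass. With changes in both directions, the median log2 fold change was -0.05, against 0.02 over all genes tested. The repressor Per3 was lower by the most among the period genes, at 66.5 to 81.4 CPM against 3.93 to 6.99 CPM (log2 fold change -3.63, standard error 0.18, adjusted p = 1.3e-06, edgeR). Per2 fell by 1.18 on the log2 scale (adjusted p = 9.4e-05), and Per1 did not pass (-0.74, adjusted p = 0.11), with 30.6 to 98.7 CPM against 31.9 to 59.2 CPM, but was called lower without Bmal1+/+ replicate 1 (-0.99, adjusted p = 0.019). Ciart, a repressor that binds BMAL1, fell by 4.03 (log2 fold change -4.94 without replicate 1 labelled Bmal1-/-). Bhlhe41 had 17 to 43 counts in Bmal1+/+ libraries and 0 to 3 in the others, and Bhlhe40 fell by 0.55 (adjusted p = 0.034), a call that was kept in 9 of 17 alternatives and lost (adjusted p 0.051 to 0.092) without any single library other than replicate 1 labelled Bmal1-/-. On the activating side Arntl rose by 4.38 and Clock by 1.69, and Npas2, which can stand in for Clock, had 2 to 4 counts in Bmal1+/+ libraries and 460 to 610 in the others. Cry1 rose by 2.32 (adjusted p = 6.6e-06), from 18.6 ± 2.60 to 93.2 ± 13.6 CPM (SD, n = 4 each), and Cry2 did not pass (0.50, adjusted p = 0.065), though it did with DESeq2, without Bmal1+/+ replicate 2 (0.62, adjusted p = 0.047) and without replicate 3 labelled Bmal1-/- (0.59, adjusted p = 0.049).

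The REV-ERB and ROR factors act on the element through which Nfil3 is known to be controlled. The repressors Nr1d1 and Nr1d2 both fell, Nr1d1 from 44.1 ± 5.90 to 2.82 ± 1.05 CPM (log2 fold change -3.97, standard error 0.24, adjusted p = 5.4e-06) and Nr1d2 from 145.3 ± 8.57 to 12.1 ± 2.87 CPM (-3.58, standard error 0.17, adjusted p = 1.3e-06; SD, n = 4 each). The activator Rora was at 90.2 ± 8.28 and 118.3 ± 28.8 CPM without passing (0.39, adjusted p = 0.10, and 0.50 with adjusted p = 0.034 without replicate 3 labelled Bmal1-/-), and Rorb had no count.

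The C/EBP factors are bZIP proteins that bind sites close to the D-box in sequence. Of the 6 genes 2 fell (33.3%, against 16.2% of all genes tested), 1 rose (16.7%, against 14.9%) and 3 did not pass. Their median log2 fold change was -0.24. Cebpa, the main member in hepatocytes, was at 602.4 ± 93.1 and 493.4 ± 136.5 CPM (SD, n = 4 each; -0.29, adjusted p = 0.31), and Cebpb fell by 0.66 (adjusted p = 0.017). The low Cebpe rose by 1.55, from 3.83 to 11.2 CPM. Ddit3 fell by 0.63 (adjusted p = 0.019), and its call was lost without Bmal1+/+ replicate 1, Bmal1+/+ replicate 3 or replicate 2 labelled Bmal1-/- (adjusted p 0.051 to 0.060).

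Downstream, PAR bZIP factors are known in liver and kidney for their control of detoxification genes. Of 13 such genes 7 fell (53.8%, against 16.2% of all genes tested), 2 rose (15.4%, against 14.9%) and 4 did not pass. The median log2 fold change was -1.27. This list, like the others, was chosen with earlier results of these data known, so its shares are only a description. Alas1, the first enzyme of heme synthesis, was at 1188.6 to 1392.5 CPM in Bmal1+/+ libraries and 144 to 315.4 CPM in the libraries labelled Bmal1-/- (log2 fold change -2.54, standard error 0.23, adjusted p = 5.2e-05). Por, which passes electrons to all microsomal cytochromes P450, was at 802.9 to 1332 CPM and 101.4 to 192.4 CPM (-2.75, standard error 0.24, adjusted p = 4.5e-05). Cyp2a5 and Cyp2b9 fell (log2 fold changes -3.92 and -7.17), while Cyp2a4 had 9361 to 24234 counts against 1 to 12, and Cyp2b13 had 5486 to 8054 counts against 1 to 19. Cyp2b10 was at 297.4 ± 153.1 and 123.7 ± 68.1 CPM and its nuclear receptor Nr1i3 (CAR) at 337.1 ± 34.3 and 203.2 ± 83.8 CPM (SD, n = 4 each), and neither passed (adjusted p = 0.077 and 0.054). Cyp2b10 was called lower without Bmal1+/+ replicate 3 (-1.53, adjusted p = 0.036) and Nr1i3 without replicate 3 labelled Bmal1-/- (-1.05, adjusted p = 0.0047). Nr1i3 was also called lower with DESeq2, limma-voom, the filter of 10 counts in every sample, the authors' FPKM and the replicate block, so that 11 of its 17 alternatives gave no call. In the other direction Cyp2c50 rose by 0.85 and Cyp2c54 by 1.16. The call of Cyp2c54 was lost (adjusted p 0.064 to 0.11) without Bmal1+/+ replicate 1, 2 or 4 or replicate 1, 2 or 3 labelled Bmal1-/-. Cyp2c37 fell by 0.56 (adjusted p = 0.048), a call that was lost (adjusted p 0.063 to 0.12) without any single library other than replicate 3 labelled Bmal1-/-. Cyp3a11 and Ces2a did not pass (0.38 and 0.30, adjusted p = 0.53 each) and were called higher (0.71 and 0.59) without replicate 4 labelled Bmal1-/-, in which they were at 433.9 and 102.5 CPM against at least 1851.3 and 336.4 CPM in the rest of that group. Genes of the Cyp2a, Cyp2b, Cyp2c and Cyp3a families have near-identical neighbours, between which counting can split reads. Cyp2a4, Cyp2b9 and Cyp2b13 are also known to be female-biased in mouse liver, and the groups differed in Xist and Y-linked transcripts as given above.

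The second downstream list follows the known link from PAR bZIP factors through acyl-CoA thioesterases to PPARA, a nuclear receptor for fatty acids, and its targets. Of its 10 genes 7 fell (70.0%, against 16.2% of all genes tested), 2 rose (20.0%, against 14.9%) and 1 did not pass. The median log2 fold change was -1.43. Ppara itself fell from 198.5 ± 31.0 to 105.7 ± 37.8 CPM (SD, n = 4 each; -0.91, adjusted p = 0.017). Among the thioesterases Acot2 and Acot4 fell (-1.92 and -3.73), Acot3 had 1748 to 3202 counts against 0 to 21, and Acot1 did not pass (-0.64, adjusted p = 0.36). The PPARA targets Cyp4a10 and Cyp4a14 fell (-3.48 and -4.33), with the lowest levels, 5.70 and 4.54 CPM, in replicate 4 labelled Bmal1-/-, and Cpt1a, which admits fatty acids to mitochondria, fell by 0.94. The 2 genes that rose were Elovl3, a fatty acid elongase, from 3.79 ± 2.23 to 1339.5 ± 409.3 CPM (8.46, standard error 0.51, adjusted p = 5.3e-06), and Lpl, lipoprotein lipase, from 11.9 ± 2.36 to 424 ± 102.7 CPM (5.16, standard error 0.24, adjusted p = 1.1e-06; SD, n = 4 each). Acot3 is known to be female-biased and Elovl3 male-biased in mouse liver, and the part of sex in these differences was not tested. The Acot and Cyp4a genes also lie in families of close copies.

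Of 5 single genes studied elsewhere for a D-box or a site bound by NFIL3, 3 were tested and all 3 fell. Alb, in whose promoter DBP was first found, was at 64317.6 to 71872 CPM in Bmal1+/+ libraries and 12744.3 to 18829.8 CPM in those labelled Bmal1-/- (log2 fold change -2.10, adjusted p = 6.8e-05). Cyp7a1, the rate-limiting enzyme of bile acid synthesis, was at 353.6 to 422.5 and 48.7 to 109.6 CPM (-2.53, adjusted p = 0.00011). Pdxk, which makes the active form of vitamin B6, was at 107.7 to 159.5 and 37.6 to 56.4 CPM (-1.50, adjusted p = 0.00014). Fgf21 had 1 to 10 counts in each library and Il12b had none. Most genes of these 3 downstream lists are expressed mainly in hepatocytes. The 8 hepatocyte markers summed to lower levels in every library labelled Bmal1-/-, but Alb, itself a gene of this list, was the only marker of the 8 that fell, 2 rose, and the sum of the 7 without Alb was higher in every library labelled Bmal1-/-. Across all genes tested, 16.2% were lower and 14.9% higher. The part of cell composition in the lists was not tested.

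Nfil3 is required for NK cells, innate lymphoid cells and a class of dendritic cells, and 9 genes of these cells were examined. Only 5 had enough counts. Of these 1 fell (20.0%, against 16.2% of all genes tested), 0 rose (against 14.9%) and 4 did not pass. The gene that fell was Tox, from 18.8 ± 3.72 to 2.51 ± 0.690 CPM (SD, n = 4 each, log2 fold change -2.89, adjusted p = 2e-05, edgeR's quasi-likelihood test). Id2 was at 50.4 to 152.5 and 65.0 to 198.7 CPM (0.64, adjusted p = 0.24, and 1.09 with adjusted p = 0.038 without Bmal1+/+ replicate 1), and Zbtb16 at 61.5 to 116.7 and 68.5 to 157.7 CPM (0.21, adjusted p = 0.60). In each Bmal1+/+ library Tox, Id2 and Zbtb16 were each above the summed T and NK cell markers, which were at 3.96 to 5.95 CPM there. Which cells the reads of these genes came from was not tested, and sex and genotype label cannot be told apart here either. The other 4 of the 9 genes were too rare to be tested. Ncr1, a receptor of NK cells, had 6 to 9 counts in Bmal1+/+ libraries and 0 to 4 in those labelled Bmal1-/-. These counts did not overlap, and neither did the CPM values of the groups in 33.4% of all genes tested. Tbx21 had 2 to 9 counts against 0 to 3, Gata3 had 2 to 8 against 0 to 2, and Eomes had 0 to 3 against 0 to 2.

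**Figure D4:**
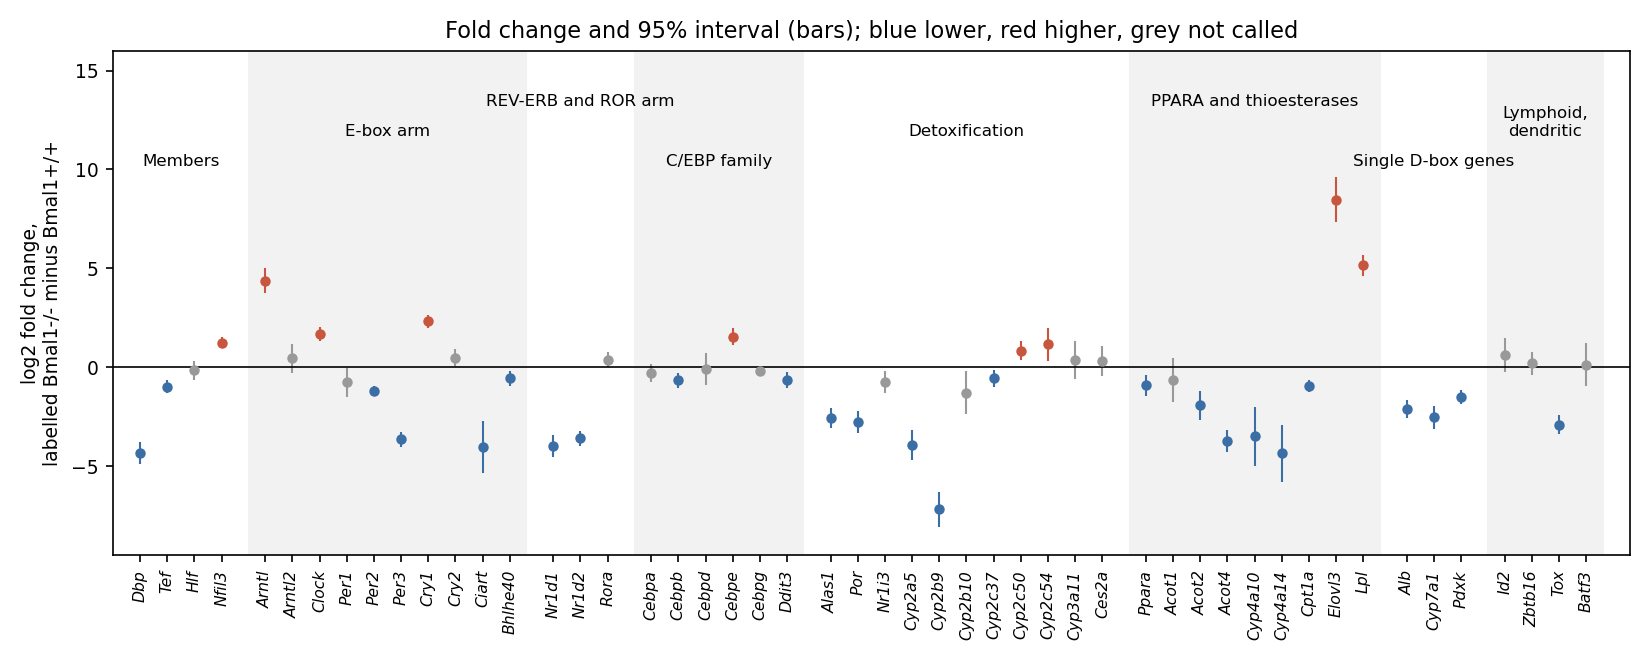
Log2 fold change (y axis, libraries labelled Bmal1-/- minus Bmal1+/+) with its 95% interval for the 4 factors and tested genes of the 7 lists, blue where lower, red where higher and grey where the adjusted p was not below 0.05. Genes with a library at or under 3 counts are not drawn; Dbp (-4.32) lies near Nr1d1 (-3.97), Nr1d2 (-3.58) and Per3 (-3.63), and the highest points are Elovl3 (8.46), Lpl (5.16) and Arntl (4.38).

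The promoters of the 4 factors were searched for the elements named above in windows of 300 bases, from 250 before the transcript start to 50 after it (RefSeq, GRCm38.p6). The search covered both strands for the E-box CACGTG, for the D-box as TTATGTAA or TTATGCAA, and for the REV-ERB/ROR half-site as TAGGTCA or TGGGTCA. Of 32851 windows of all genes, 7.15% held an E-box, 1.66% a D-box and 6.45% a half-site. The matches of the factors are shown with 10 bases on each side, 5′ to 3′ on the gene's strand, with the element in capitals.
Tef, first window, E-box: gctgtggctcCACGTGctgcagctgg
Tef, second window, E-box: cctggcccagCACGTGtctacatcgt
Nfil3, half-site on the opposite strand: cgctcggaacTGACCTActaacacaca
The E-boxes of Tef lie at chr15:81802536-81802561 and chr15:81811266-81811291, 127 and 138 bases before its 2 listed starts. The half-site of Nfil3 lies at chr13:52981035-52981061 on the - strand, 12 bases before the start. No window of Dbp or Hlf held these letters, which says only that they are not in these 300 bases.

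Among the genes of the 7 lists, D-boxes stood in the windows of clock genes and of downstream genes. They are shown for Per1 and Per3 and for 4 liver genes.
Per1: gggcctggcaTTATGCAAcccgcctccc
Per3, first: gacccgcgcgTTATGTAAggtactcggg
Per3, second: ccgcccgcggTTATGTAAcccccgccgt
Alb, first: gattaagctcTTATGTAAaatttgctgt
Alb, second: atttgctgttTTACATAActttaatgaa
Cyp2a4 and Cyp2a5: ggtgaaatagTTGCATAAtcaagaccaa
Cyp2b10: acagctgaagTTGCATAActgagtggag
Their positions are chr11:69098915-69098942 for Per1, chr4:151044853-151044880 and chr4:151044806-151044833 (- strand) for Per3, chr5:90460637-90460664 and chr5:90460656-90460683 for Alb, chr7:26307112-26307139 for Cyp2a4, chr7:26835258-26835285 for Cyp2a5 and chr7:25897590-25897617 for Cyp2b10. Per3 and Alb, with a pair of D-boxes each, fell by 3.63 and 2.10 on the log2 scale. Per1, with a single D-box and an E-box in the same window, did not pass with all libraries. Of the liver genes with a single D-box, Cyp2a4 was lower, Cyp2a5 fell by 3.92 and Cyp2b10 did not pass with all libraries. Per1 and Cyp2b10 were each called lower without 1 Bmal1+/+ library, as given above. Any link between the number of D-boxes and the change was not tested. Cyp2a4 and Cyp2a5, which are near-identical genes, hold the same 28 bases. Over the whole table, 159 tested genes had a D-box in their window, of which 28.9% were lower and 14.5% higher, with a median log2 fold change of -0.14. For genes with an E-box these figures were 15.0%, 14.4% and 0.02, and with a half-site 18.8%, 15.9% and 0.004. Among all 10084 tested genes with a window they were 16.6%, 14.6% and 0.02. This is a count of letters near start sites and was not tested, and a match does not show that a factor bound there.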

How the data were processed

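RNA from 4 Bmal1+/+ and 4 Bmal1-/- samples was analysed, and groups came from the genotype labels. A Bmal1-/- library has a title that does not match its description, and the description made it replicate 4. Per the methods, reads were aligned to GRCm38 by the authors using HISAT2, and StringTie gave the fragments per gene, whereas the submitters' processing notes name CASAVA 1.8 and TopHat2 2.0.6. The series text speaks of array hybridization, but the deposited values are whole-number counts, not normalized, beside FPKM values that the authors computed. Library totals were 14054825 to 18449143 counts, and 3 counts were taken as the floor.

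Counts were normalized by TMM and compared in R 4.3.3 with edgeR 4.0.16 (filterByExpr, quasi-likelihood test, prior count 0.125, Benjamini-Hochberg adjustment over 14353 genes, threshold 0.05), with no covariate. The design text gives 4 mice per group, but no label ties a library to a mouse, so p-values measure the spread between these samples. Pairs of genes were compared by exact permutation of the log2 ratio of CPM + 0.1, using scipy 1.17.1 in Python 3.11.15. Figures were drawn with matplotlib 3.10.9. The fit was tested on simulated data. Within each group, no libraries were duplicates of one another (chi-square per degree of freedom at least 19.7). Pairs across the groups were not compared. Symbols and coordinates came from GENCODE M21 (GRCm38, an earlier release than the one the authors used), which matched 99.5% of 55487 identifiers. Promoter windows came from RefSeq (GRCm38.p6) for 51 of the 64 genes. Where a symbol had 2 identifiers, the protein-coding one with the most exon bases was used.

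The members and lists were chosen with earlier results of these data known. Genes named are the 4 factors, the 7 lists, genes overlapping a factor and the 3 nearest in profile to each factor. The result of a list gene is not reported here. Cell type markers were 6 further lists. DESeq2 1.42.0, limma-voom (limma 3.58.1), other normalizations and filters, a prior count of 2, the authors' FPKM, leaving out each library and a replicate block were alternatives.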

Additional observations from a re-analysis of the deposited data

Results flagged for a closer look

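In 4 of 128 groups of 4 libraries examined (the 4 factors, their ratios and the list genes), 1 library lay far from the other 3 by Dixon's criterion, where chance gives about 1 in 20, or 6.4 groups. Hlf was at 101.6 CPM in Bmal1+/+ replicate 4 and at 53.5 to 59.2 CPM in the rest of the group. Npas2 was at 0.223 CPM in the same library and at 0.120 to 0.134 CPM in the other Bmal1+/+ libraries, a difference of 4 counts against 2. In replicate 1 labelled Bmal1-/-, Per1 was at 59.2 CPM against 31.9 to 34.9 CPM and Ciart at 4.18 CPM against 0.783 to 1.15 CPM in the others of its group.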

How the results depend on the processing

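Dbp, Tef and Nfil3 kept their direction and their call in all 17 alternative fits, with log2 fold changes of -4.58 to -4.15, -1.09 to -0.90 and 1.17 to 1.30. Hlf was called in none of its 17 alternatives (adjusted p 0.45 to 0.89), with values from -0.251 to 0.096 over the fits that leave out a library, the positive one being that without Bmal1+/+ replicate 4. The cut-offs of the study were a log2 change beyond 1 either way and p below 0.05 with no adjustment. With them 1250 genes were lower and 776 higher, against 2322 and 2135. Tef was not called (-0.98), and 7 of the 37 list genes called were lost. Cyp2b10 was the 1 list gene called only with these cut-offs (-1.27, unadjusted p = 0.028, edgeR's quasi-likelihood test). The Tef to Hlf difference was -0.864 with a pseudocount of 0.5 CPM and then had exact p = 0.0286. Leaving out a library moved it between -1.09 and -0.72. Deviations of libraries with the same replicate number correlated at -0.06 to 0.06 across genes, so the number is only a name. With the replicate block, 2064 genes were lower and 1809 higher, Dbp was at -4.33, Tef at -0.99, Hlf at -0.12 and Nfil3 at 1.25, and the call of Cebpb was lost (adjusted p = 0.055). The sign-flip test of the ratios over 4 pairs cannot reach 0.05. Of 37 list genes called, 32 kept their call in all of the 17 alternative fits that could be made for them and 0 changed sign. Of 252 list counts under alternatives 16 moved by over 1.5 times, 9 of them the detoxification genes called higher (1 to 4). List medians were the same with genes at the floor set at their bound. Depth limits the rare lymphoid genes.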
